A study of Rattus norvegicus with 50 samples.

Results

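The matrix metalloproteinases and their tissue inhibitors were followed in rat lung as 10 genes, namely the metalloproteinases Mmp2, Mmp3, Mmp7, Mmp8, Mmp9, Mmp12 and Mmp14 and the inhibitors Timp1, Timp2 and Timp3. Members were the gene spots of the array that carry 1 of these 10 names, which gave 44 of 58717 spots and 11 probes. All 10 genes were among the 25208 genes tested. The rule uses names only, but the members were chosen with earlier results of these data known, so the counts of members called are a description.

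Metalloproteinases are zinc-dependent enzymes that cut collagens, elastin and other proteins of the extracellular matrix, as well as cytokines and proteins of the cell surface. Most are secreted as inactive precursors that other proteases activate, and the tissue inhibitors of metalloproteinases (TIMPs) block the active site. In the lung these enzymes are known for matrix turnover, for the passage of leukocytes into the airspaces and for their part in emphysema and fibrosis.

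The lungs came from male rats of the F344 strain, labelled as 12 weeks-old. Every group carries this same label whatever its day, so it cannot be the age at each sampling. The age at sampling was not worked out, and in comparisons between days it cannot be told apart from day. Exposed rats had breathed TiO2 P25 nanoparticles through the nose only, at 10 mg/m3 for 6 hours a day on 5 days a week over 4 weeks, and control rats had breathed air. RNA of the accessory lobe was hybridised to 50 single-colour arrays, 1 for each rat, with 5 control and 5 exposed rats when exposure ended (D0) and after a further 3, 28, 90 and 180 days (D3, D28, D90 and D180). The lobe was taken whole, so that in every result fewer cells of a type and less RNA per cell cannot be told apart.

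Levels are the log2 fluorescence of a probe after quantile normalization between arrays, and replicates 1 to 5 of a group are listed in that order. A member was called over-expressed or under-expressed when limma gave an adjusted p under 0.05 over all genes tested and a change of at least 1.5-fold. Levels of different probes were not compared, since probes differ in brightness. The 50 arrays lay on 7 slides. Slides 1 to 4 held D0, D3 and D28 and slides 5 to 7 held D90 and D180, apart from exposed replicate 1 at D3 on slide 7, so that slide set and day cannot be told apart across these sets. Arrays of a group correlated at 0.973 to 0.996 over genes, which are not independent replicates.

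The probes show which piece of each transcript a level reads. All were 60 bases long, and the positions in the array files refer to rat build rn4. The Mmp12 probe lies at chr8:4259057-4259413 on the plus strand and its 60 bases span 357 positions, as those of a probe across a splice junction do. The Timp3 probe lies at chr7:19679721-19679780 on the minus strand. The Mmp7 probe lies at chr8:4533647-4533706 and the Mmp14 probe at chr15:32503002-32503061, both on the plus strand, and the first 30 bases of these are printed. They are shown because the results turn on these 4 probes.
Mmp12: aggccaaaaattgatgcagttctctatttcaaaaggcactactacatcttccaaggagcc
Timp3: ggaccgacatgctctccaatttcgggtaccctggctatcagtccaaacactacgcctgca
Mmp7, first 30 bases: agtctgacaaatctcaggtaacacgacaga
Mmp14, first 30 bases: taaaaagaatcttcagagtgcatatttgga

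The probes of Mmp12, Mmp3, Mmp8 and Mmp7 lie within 275 kb of each other on chromosome 8. RefSeq promoter sequences of assembly GRCr8 were matched by symbol for 7 of the 10 members, and the 250 bases before the start of transcription were searched on both strands. No promoter was found for Mmp2, Mmp9 and Mmp14. The letters TGAGTCA, which the AP-1 transcription factor is known to bind, were found in Mmp3, Mmp7 and Mmp12 and in none of Mmp8, Timp1, Timp2 and Timp3. Of all 33469 promoters, 4.05% hold TGAGTCA in the same window and 12.9% hold TATAAA, the letters of a TATA box. TATAAA was found in Mmp3, Mmp7, Mmp8 and Mmp12, and no match of either motif overlapped another. In Mmp8 it lay on the strand opposite to the gene, and in Mmp3, Mmp7 and Mmp12 on the strand of the gene. In the Mmp7 promoter (chr8:13132793-13133042, plus strand) TGAGTCA starts 80 bases before the start and TATAAA starts 140 and 43 bases before it. In the Mmp12 promoter (chr8:12866402-12866651, plus strand) TGAGTCA starts 87 and TATAAA 39 bases before the start. The Timp3 window (chr7:19459559-19459808, minus strand) holds neither. The 3 windows are printed because these members were over- or under-expressed after exposure, with the motif letters in capitals. A match describes letters and is not a bound site.
Mmp7: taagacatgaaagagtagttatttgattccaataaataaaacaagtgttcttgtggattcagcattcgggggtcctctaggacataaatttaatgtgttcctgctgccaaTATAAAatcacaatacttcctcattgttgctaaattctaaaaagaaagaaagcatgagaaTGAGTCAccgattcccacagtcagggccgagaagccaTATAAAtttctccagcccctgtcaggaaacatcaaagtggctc
Mmp12: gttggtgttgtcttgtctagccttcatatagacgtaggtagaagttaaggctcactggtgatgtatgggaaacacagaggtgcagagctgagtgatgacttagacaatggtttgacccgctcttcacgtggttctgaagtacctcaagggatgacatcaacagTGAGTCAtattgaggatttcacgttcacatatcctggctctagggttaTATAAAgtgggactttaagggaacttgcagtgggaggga
Timp3: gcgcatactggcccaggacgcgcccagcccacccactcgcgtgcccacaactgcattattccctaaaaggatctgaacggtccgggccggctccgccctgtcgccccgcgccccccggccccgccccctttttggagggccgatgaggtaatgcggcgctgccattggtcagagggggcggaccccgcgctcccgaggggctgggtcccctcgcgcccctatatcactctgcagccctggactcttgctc

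Of the 10 members, 3 were over-expressed in exposed lungs at D0 and none was under-expressed, against 4.28% of all genes called at that day. At D3, 3 were over-expressed and 1 was under-expressed, against 3.48% of all genes. A single member was over-expressed at D28 (1.33% of all genes called), at D90 (0.381%) and at D180 (0.325%), and it was Mmp7 each time. The medians of the 10 log2 changes at the 5 days were -0.03, 0.25, -0.04, -0.02 and -0.04, and those of all genes lay between -0.01 and 0.004. At each day, at least 6 of the 10 members were not called. Exposed and control arrays did not overlap for 4 members at D0 (8.53% of all genes), 6 at D3 (6.79%), 1 at D28 (3.8%), none at D90 (3.83%) and 1 at D180 (4.23%).

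**Figure D1:**
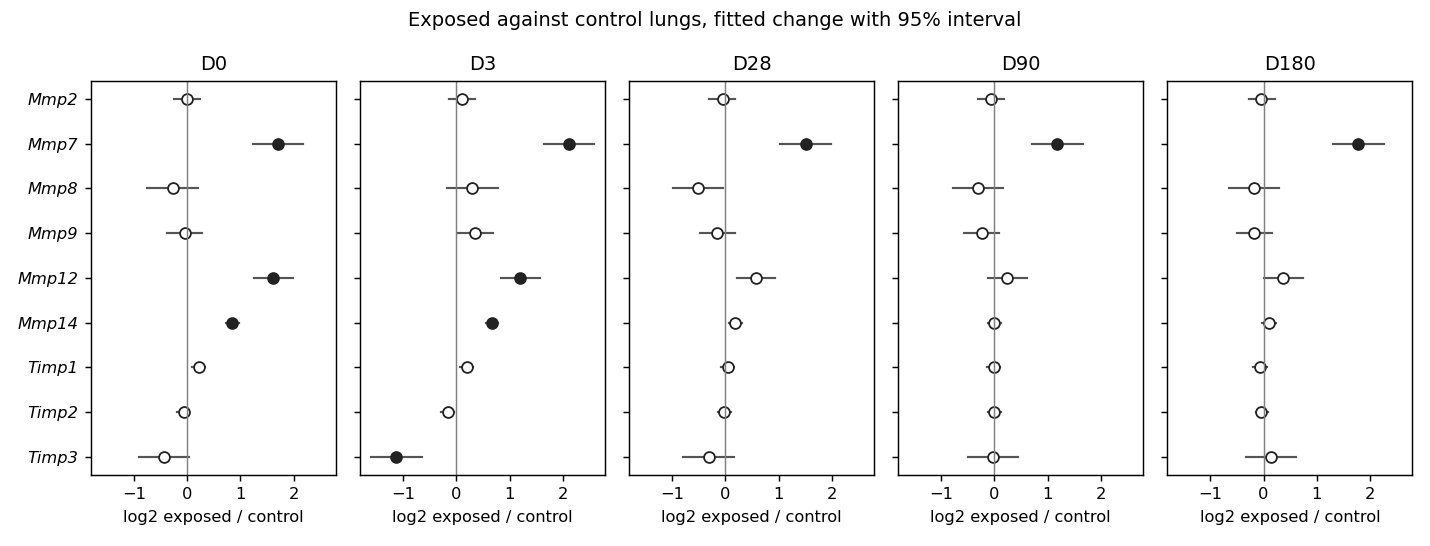
Fitted log2 change of exposed against control lungs (x axis) for 9 members (rows) at each day (panels), 5 against 5 arrays, with lines for the 95% confidence interval and filled points for members called at an adjusted p under 0.05 and at least 1.5-fold. Mmp7 is filled in all 5 panels, Mmp12 and Mmp14 at D0 and D3, and Timp3 at D3, where it lies below 0; Mmp3 is left out because it was not well above background.

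Mmp7 (matrilysin), a small metalloproteinase made mainly by epithelial cells, was over-expressed at all 5 days. At D0 its log2 level in the control lungs was 6.57, 6.45, 7.21, 6.73 and 6.45, and in the exposed lungs 8.45, 8.10, 8.56, 8.12 and 8.71. The fitted change was 1.71 ± 0.24 (SE, n = 5 and 5), or 3.26-fold, with an adjusted p of 5.06e-07 by limma. All 5 exposed lungs lay above all 5 control lungs.

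At D3 the control lungs had Mmp7 levels of 7.27, 7.23, 7.16, 7.16 and 7.23 and the exposed lungs 9.04, 9.22, 9.18, 9.30 and 9.89. The controls lay close together and every exposed lung was far above them. This was the largest of the 5 changes, 2.12 ± 0.24 on the log2 scale or 4.34-fold (limma adjusted p = 6.34e-09). Between D0 and D3 the exposed lungs rose by 0.94 ± 0.24 (limma adjusted p = 0.0133), a comparison chosen after its values were seen, in which 1.28% of all genes and 2 members were called. That call was lost without exposed replicate 5 at D3 (0.80, adjusted p = 0.0649) and with only the arrays of the groups compared (0.94, adjusted p = 0.0705).

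At D28 Mmp7 stood at 7.36, 7.56, 6.72, 7.32 and 6.57 in controls and at 8.15, 8.49, 8.80, 8.55 and 9.09 in exposed lungs, again with no overlap. The change was 1.51 ± 0.24, or 2.85-fold (limma adjusted p = 2.97e-05). At D90 the controls had 6.43, 6.4, 7.26, 6.54 and 6.62 and the exposed lungs 7.11, 7.36, 7.87, 8.49 and 8.33. Here the groups overlapped, since exposed replicate 1 fell below control replicate 3. The change at D90 was 1.18 ± 0.24, or 2.27-fold (limma adjusted p = 0.00309), and it was not called when only the arrays of D90 were fitted (adjusted p = 0.134).

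At D180 the Mmp7 levels were 5.44, 6.43, 6.59, 6.60 and 6.71 in controls and 8.17, 8.63, 7.90, 7.91 and 8.08 in exposed lungs. Control replicate 1 lay well under the other controls, and the lowest exposed lung was above the highest control. The change was 1.78 ± 0.24, or 3.44-fold (limma adjusted p = 3.48e-06), and 1.55 on the log2 scale without control replicate 1. The exposure effect on Mmp7 was not shown to differ from that at D0 on any later day, with differences of 0.41 for D3 (95% interval -0.26 to 1.08), -0.20 for D28 (-0.87 to 0.48), -0.53 for D90 (-1.2 to 0.15) and 0.08 for D180 (-0.60 to 0.75). Control lungs were not called for Mmp7 in any comparison between days.

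Mmp12 (macrophage elastase), which degrades elastin and is made mainly by macrophages, was over-expressed early. At D0 its log2 level was 9.08, 8.84, 8.74, 8.77 and 9.80 in control and 10.56, 10.47, 11, 10.62 and 10.67 in exposed lungs. Control replicate 5 stood above the other controls, and still below every exposed lung. The change was 1.61 ± 0.18, or 3.06-fold (limma adjusted p = 3.95e-09), and 1.80 on the log2 scale without control replicate 5.

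At D3 the controls had Mmp12 levels of 9.41, 9.71, 10.15, 10.28 and 9.50 and the exposed lungs 10.94, 11.09, 10.77, 10.98 and 11.29. The controls were spread over a wide range, and the groups did not overlap. The change was 1.2 ± 0.18, or 2.30-fold (limma adjusted p = 4.34e-06).

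At D28 the Mmp12 levels were 9.88, 10.10, 9.85, 9.77 and 9.84 in controls and 9.84, 10.53, 10.31, 10.73 and 10.90 in exposed lungs. Exposed replicate 1 lay among the controls and the other 4 exposed lungs lay above them. The change of 0.58 ± 0.18 was not called (limma adjusted p = 0.0617), and it was called without exposed replicate 1 (0.73, adjusted p = 0.0087). At D90 the levels were 9.60, 9.51, 9.67, 10.07 and 9.80 against 9.86, 9.69, 10.26, 10.00 and 10.04, and the groups overlapped (0.24 ± 0.18, limma adjusted p = 1). At D180 they were 8.97, 9.70, 9.77, 9.57 and 9.63 against 9.85, 10.18, 9.81, 9.76 and 9.89, with 4 of 5 exposed lungs above all controls (0.37 ± 0.18, limma adjusted p = 0.601).

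Mmp14 (MT1-MMP), a membrane-bound enzyme that cuts collagen at the cell surface and activates the precursor of Mmp2, had the smallest standard error of the 4 members called after exposure. At D0 its log2 level was 12.37, 12.19, 12.22, 12.16 and 12.37 in controls and 13.05, 13.21, 13.15, 13.13 and 13.05 in exposed lungs. The gap between the groups was far wider than the spread within either. The change was 0.85 ± 0.06, or 1.81-fold (limma adjusted p = 1.72e-14).

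At D3 the controls had Mmp14 levels of 12.67, 12.76, 12.93, 12.75 and 12.52 and the exposed lungs 13.48, 13.48, 13.29, 13.41 and 13.33, with no overlap (0.67 ± 0.06, 1.59-fold, limma adjusted p = 4.34e-11). At D28 the levels were 12.97, 13.16, 12.99, 13.07 and 13.21 against 13.16, 13.35, 13.23, 13.26 and 13.36. Exposed replicate 1 lay within the range of the controls and the other 4 lay above it (0.19 ± 0.06, limma adjusted p = 0.0706). At D90 the levels were 13.19, 13.10, 13.17, 13.22 and 13.16 against 13.10, 13.28, 13.20, 13.20 and 13.03, fully mixed (-0.01 ± 0.06, limma adjusted p = 1). At D180 they were 12.98, 13.05, 12.92, 13.07 and 12.93 against 13.14, 13.09, 13.04, 13.14 and 13.07, and 4 of 5 exposed lungs lay above all controls, replicate 5 by less than the rounding (0.11 ± 0.06, limma adjusted p = 0.75).

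**Figure D2:**
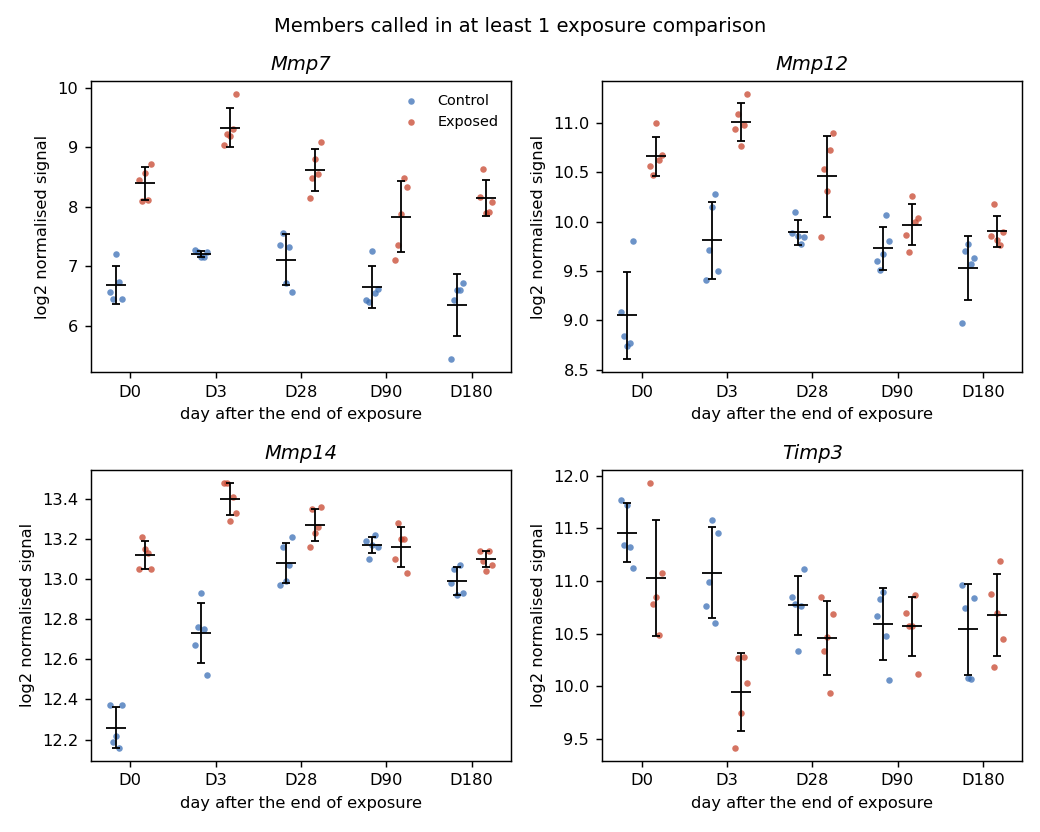
Log2 normalised signal (y axis) of Mmp7, Mmp12, Mmp14 and Timp3 in control (blue) and exposed (red) lungs at each day after the end of exposure (x axis), with a point per array and bars for the mean ± SD of 5 arrays. Mmp7 is higher in exposed lungs throughout, the control lungs of Mmp14 climb from a mean of 12.26 at D0 to 13.08 at D28 while its exposed lungs stay above 13, and Timp3 of exposed lungs is lowest at D3.

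The 3 other metalloproteinases with a measurable level were not called in any of the 5 exposure comparisons. Mmp2 (gelatinase A), which degrades denatured and basement membrane collagen, had log2 differences of -0.06 to 0.10 between exposed and control lungs over the 5 days, and the 95% intervals of these lay between -0.30 and 0.35. Its second probe gave -0.12 to 0.07, also with no call. Mmp9 (gelatinase B), a related enzyme stored in neutrophils, was well above background on 49 of 50 arrays and had differences of -0.24 to 0.36. The largest was at D3, with 5.97, 6.32, 5.68, 5.20 and 5.90 in controls and 5.94, 5.99, 6.17, 6.44 and 6.31 in exposed lungs (limma adjusted p = 0.186). The exposed lungs lay within or just above the spread of the controls.

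Mmp8 (neutrophil collagenase) had differences of -0.51 to 0.30. That of -0.51 ± 0.23 was at D28, with 7.37, 7.31, 6.66, 7.40 and 6.64 in controls and 6.72, 6.42, 6.82, 6.29 and 6.58 in exposed lungs (limma adjusted p = 0.254). Of the exposed lungs, 3 lay below all controls. Mmp3 (stromelysin-1) was not well above background on 48 of 50 arrays, and no fold change is given for it.

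Among the inhibitors, Timp3 was under-expressed at D3. Timp3 is the inhibitor that binds to the matrix, and it also blocks ADAM17 and some ADAMTS proteases. At D0 its log2 level was 11.77, 11.34, 11.72, 11.32 and 11.12 in controls and 11.93, 10.78, 10.85, 10.49 and 11.08 in exposed lungs. Exposed replicate 1 was the highest of all 10 lungs while the other 4 lay below every control (-0.43 ± 0.24, limma adjusted p = 0.277). Without that array the change was -0.66 and was called (limma adjusted p = 0.0482).

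At D3 the Timp3 levels were 10.76, 10.99, 11.58, 10.60 and 11.46 in controls and 9.42, 10.27, 9.75, 10.28 and 10.03 in exposed lungs, and every exposed lung lay below every control. The level fell by 1.13 ± 0.24 on the log2 scale, to 0.458 of the control level (limma adjusted p = 0.000634). The lowest value came from exposed replicate 1, the array on slide 7, and without it the change was -0.99 and was still called. Exposed lungs themselves fell by 1.08 ± 0.24 from D0 to D3 (limma adjusted p = 0.00321), a call lost with only the arrays of the groups compared (adjusted p = 0.176).

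At D28 Timp3 stood at 10.85, 10.78, 10.34, 10.76 and 11.11 in controls and at 10.85, 10.34, 10.47, 9.94 and 10.69 in exposed lungs, with overlap (-0.31 ± 0.24, limma adjusted p = 0.547). The changes at D90 (-0.02 ± 0.24) and D180 (0.14 ± 0.24) were not called. The exposure effect at D3 was not shown to differ from that at D0 (-0.70 ± 0.33, limma adjusted p = 0.48).

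Timp1, a secreted inhibitor that binds the precursor of Mmp9, was higher in exposed lungs by less than the 1.5-fold limit. At D0 it stood at 12.95, 12.93, 12.98, 12.88 and 12.98 in controls and at 13.14, 13, 13.30, 13.22 and 13.14 in exposed lungs. All exposed lungs lay above all controls by a small step (0.22 ± 0.06, 1.16-fold, limma adjusted p = 0.0108). At D3 the levels were 12.98, 13.08, 13.05, 13.03 and 13.12 against 13.23, 13.36, 13.15, 13.20 and 13.31, again with no overlap (0.20 ± 0.06, 1.15-fold, limma adjusted p = 0.027). Later changes of Timp1 were 0.04, -0.01 and -0.06.

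Timp2, which blocks Mmp2 and also links its precursor to Mmp14 for activation, was not called on any day. At D3 it stood at 17.04, 17.06, 17.01, 17.17 and 17.07 in controls and at 16.91, 16.80, 16.93, 16.92 and 16.98 in exposed lungs. Each exposed lung was below each control, by a change of -0.16 ± 0.06 that was not called (limma adjusted p = 0.0658). On the other days the Timp2 differences were -0.07, -0.02, 0.00 and -0.04.

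**Figure D3:**
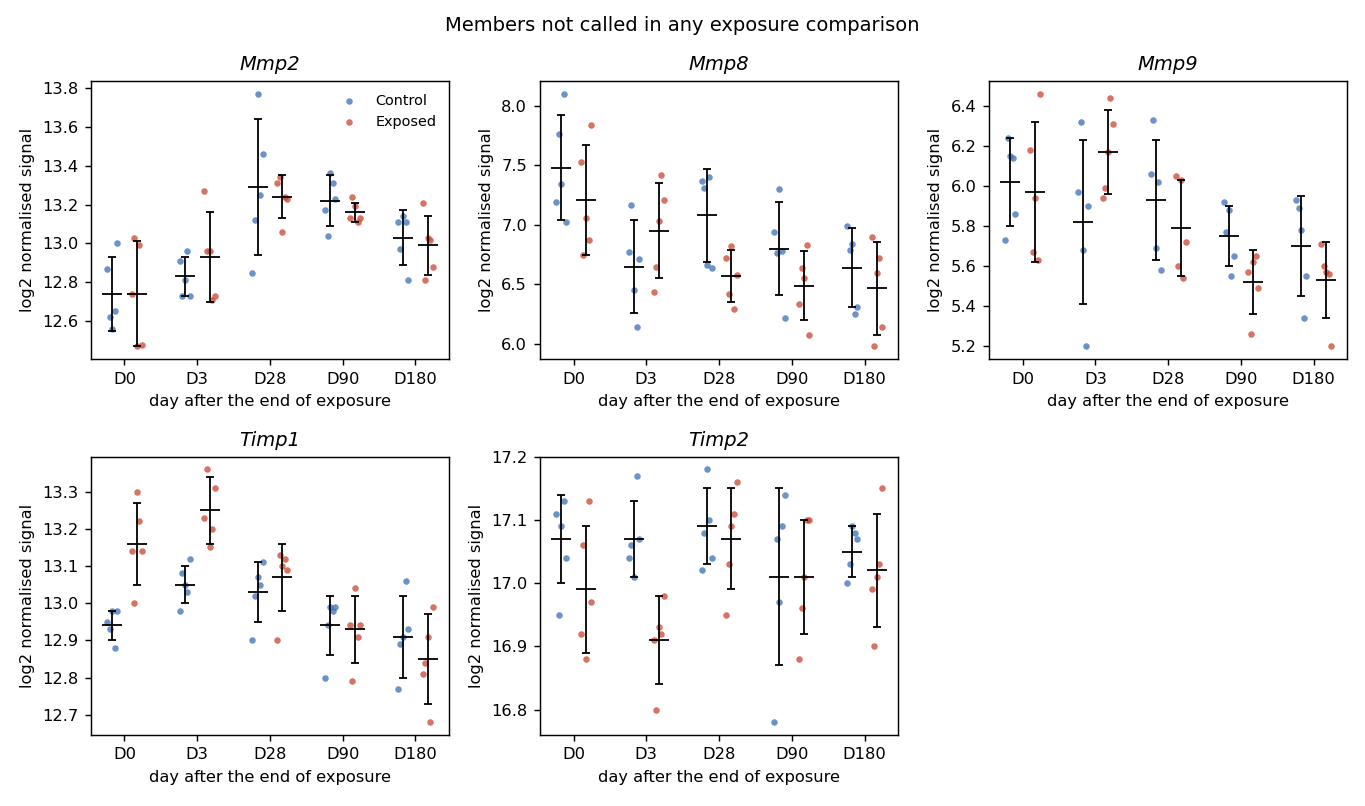
Log2 normalised signal (y axis) of Mmp2, Mmp8, Mmp9, Timp1 and Timp2 in control (blue) and exposed (red) lungs at each day (x axis), with a point per array and bars for the mean ± SD of 5 arrays. Timp1 is separated at D0 and D3 by 0.22 and 0.20, and the control lungs of Mmp8 have their highest mean, 7.48, at D0.

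Exposed and control arrays were also set side by side within each slide that held both. Mmp7 was higher in exposed lungs in every such slide, by 1.38 to 2.11 at D0 (4 slides), 2.02 to 2.67 at D3 (4 slides), 1.04 to 2.22 at D28 (3 slides), 0.65 to 1.90 at D90 (3 slides) and 1.46 to 2.83 at D180 (3 slides). Mmp12 was higher in all 4 slides at D0 (1.12 to 2.15) and at D3 (0.48 to 1.69), and Mmp14 in all 4 at D0 (0.68 to 1.01) and at D3 (0.54 to 0.74). Timp3 was lower in all 4 slides at D3 (-1.30 to -0.48), and at D0 in 3 of 4 (-0.69 to 0.49). With slide as a block, the same members were called at each day, with the D3 change of Timp3 at -0.99 (limma adjusted p = 0.000289). Some changes under the fold limit then had a limma adjusted p under 0.05. At D3 these were Mmp9 (0.45, adjusted p = 0.0103) and Timp2 (-0.17, adjusted p = 0.00788). At D28 they were Mmp12 (0.54, adjusted p = 0.0432) and Mmp14 (0.16, adjusted p = 0.0328). Mmp9 at D3 was higher in all 4 slides (0.20 to 0.97).

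**Figure D4:**
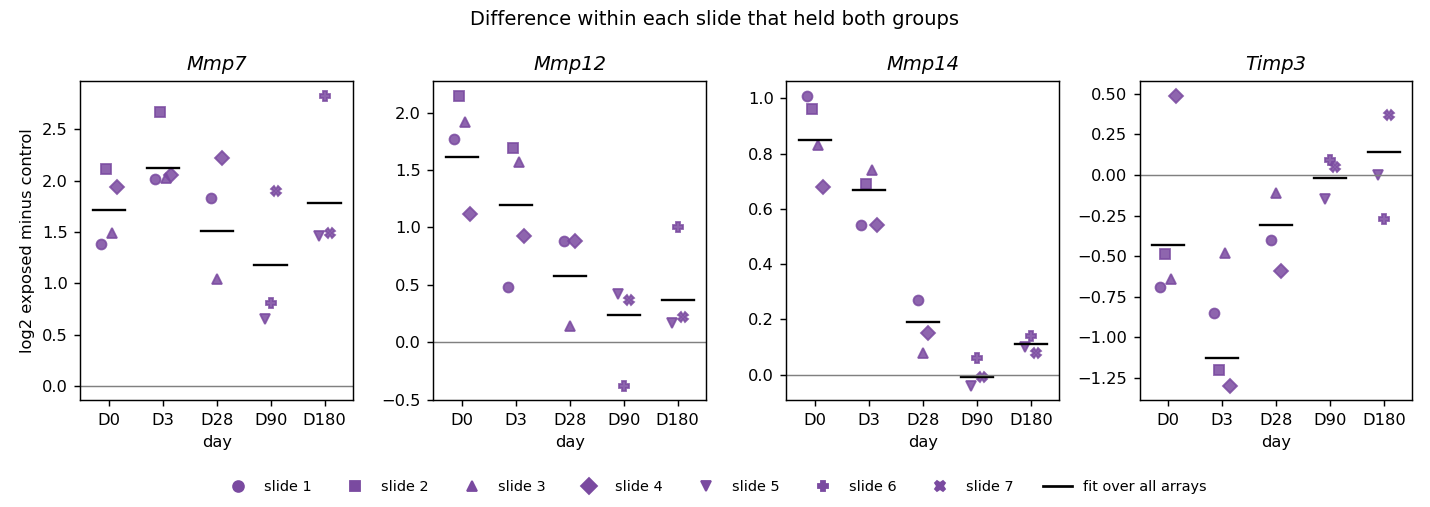
Log2 difference between exposed and control lungs (y axis) within each slide that held both groups, by day (x axis), for Mmp7, Mmp12, Mmp14 and Timp3, with a symbol per slide and a black line for the fit over all 50 arrays. The Mmp7 symbols all lie above 0, and the Mmp14 symbols drop from 0.68 to 1.01 at D0 to -0.04 to 0.06 at D90.

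The members were then followed in lungs that had breathed air only. Between D0 and D3, Mmp12 rose in controls by 0.76 ± 0.18 (limma adjusted p = 0.0042) and Mmp8 fell by 0.83 ± 0.23 (limma adjusted p = 0.0187), 2 of 10 members against 2.33% of all genes. The Mmp8 levels were 7.19, 7.76, 7.34, 8.10 and 7.02 at D0 and 6.77, 7.17, 6.45, 6.14 and 6.71 at D3. The days overlapped in 1 lung, and the Mmp8 call was lost without control replicate 2 or 4 at D0 or control replicate 4 at D3 (-0.76, -0.68 and -0.71). Neither member was called with only the arrays of the groups compared (adjusted p = 0.181 for Mmp12 and 0.139 for Mmp8).

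Mmp14 in controls was higher by 0.46 ± 0.06 at D3 than at D0 (limma adjusted p = 5.49e-07) and by 0.35 ± 0.06 at D28 than at D3 (limma adjusted p = 0.000235), each under the 1.5-fold limit. No member was called from D3 to D28 (0.639% of all genes), from D28 to D90 (5.25%) or from D90 to D180 (0.0198%). At an unadjusted p under 0.05, limma gave 2, 0 and 1 members in these comparisons. Mmp2 was higher by 0.46 ± 0.12 at D28 than at D3 (limma adjusted p = 0.034), under the fold limit. Its second probe gave 0.39 ± 0.13 (limma adjusted p = 0.157).

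From D0 to D180 in controls, Mmp14 rose by 0.73 ± 0.06 (limma adjusted p = 9.14e-12), Timp3 fell by 0.92 ± 0.24 (limma adjusted p = 0.00613) and Mmp8 fell by 0.85 ± 0.23 (limma adjusted p = 0.0112), 3 of 10 members against 5.51% of all genes. These days lay on different slides, so that day and slide set cannot be told apart in these changes. The slide sets are linked by a single array, exposed replicate 1 at D3, on which the values with slide as a block rest. They were 0.62 for Mmp14 (limma adjusted p = 0.00025), -0.41 for Timp3 (adjusted p = 0.767) and -0.41 for Mmp8 (adjusted p = 0.792). Mmp14 was called in this setting, and Timp3 and Mmp8 were not. With a single linking array, these values cannot decide whether the 3 calls hold.

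D28 and D0 shared slides 1 to 4 and were compared after their values had been seen. In controls Mmp14 rose by 0.82 ± 0.06 (1.76-fold, limma adjusted p = 2.73e-13) and Mmp12 by 0.84 ± 0.18 (1.79-fold, limma adjusted p = 0.0015), against 2.49% of all genes. All 5 controls of D28 lay above all 5 of D0 for Mmp14, and 4 of 5 did for Mmp12. With only the arrays of the groups compared, Mmp12 was not called (adjusted p = 0.0678). Within the 4 slides, the rise was 0.78 to 0.89 for Mmp14 and 0.40 to 1.19 for Mmp12. In exposed lungs no member was called over the same interval (1.42% of all genes), and limma gave 4 members at an unadjusted p under 0.05. The differences there were 0.15 ± 0.06 for Mmp14 (adjusted p = 0.195) and -0.20 ± 0.18 for Mmp12 (adjusted p = 0.739). With slide as a block, Timp3 (-0.72, limma adjusted p = 0.0124) and Mmp8 (-0.65, adjusted p = 0.0406) were called in exposed lungs, and Timp3 (-0.65, adjusted p = 0.0142) and Mmp2 (0.59, adjusted p = 1.1e-05) were added in controls.

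The difference between exposure effects was tested as an interaction in the same fit. At D28 the exposure effect differed from that at D0 by -0.66 ± 0.09 for Mmp14 (limma adjusted p = 9.02e-07) and by -1.04 ± 0.26 for Mmp12 (limma adjusted p = 0.0136), and 1.61% of all genes were called. The Mmp12 call was lost with only the arrays of the groups compared (adjusted p = 0.102). At D90 the values were -0.86 ± 0.09 for Mmp14 (limma adjusted p = 1.23e-09) and -1.37 ± 0.26 for Mmp12 (limma adjusted p = 0.000305), against 2.17% of all genes. At D180 they were -0.75 ± 0.09 for Mmp14 (limma adjusted p = 5.97e-08) and -1.24 ± 0.26 for Mmp12 (limma adjusted p = 0.00123), against 2.24%. No member was called at D3 against D0 (0.678% of all genes), with 2 members at an unadjusted p under 0.05 by limma. From D0 to D28 the mean Mmp14 level went from 12.26 to 13.08 in control lungs and from 13.12 to 13.27 in exposed lungs.

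The order of the group means differed among these members. For Mmp7 and Mmp12, all 5 exposed groups stood above all 5 control groups, with exposed lungs of D3 at the top. The lowest exposed mean of Mmp12 (9.90 at D180) and its highest control mean (9.89 at D28) differed by less than their SDs, 0.16 and 0.13. For Mmp14 the control lungs of D0 (12.26) and D3 (12.73) stood at the bottom, and the other 8 groups lay between 12.99 and 13.40. For Timp3 the control lungs of D0 (11.46) stood at the top and the exposed lungs of D3 (9.95) at the bottom, and neighbours between them differed by less than their SDs, 0.28 to 0.55.

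Other genes of the pathway were taken from lists. From a list of 18 genes, which held further metalloproteinases and the inhibitor Timp4, 15 were tested and none was called in any exposure comparison. Their median log2 change was -0.17 at D0 against -0.01 over all genes, 7 of them were well above background on every array and 3 on none.

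Of 17 ADAM and ADAMTS proteases tested, Adamts1 (-0.73 ± 0.16) and Adamts9 (-0.71 ± 0.23), which cut matrix proteoglycans, were under-expressed at D0 (limma adjusted p = 0.000749 and 0.0272). Adamts9 was under-expressed again at D28 (-1.06) and on both later days (-0.96 and -0.91), Adam19 was over-expressed at D180 (0.69), and none of the 17 was called at D3.

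Of 16 activators and regulators tested, Lcn2, whose human form binds MMP9, rose by 3.22 ± 0.21 at D0 and by 2.45 at D3. A2m, a broad protease trap, rose by 0.78 at D0. Plat, the tissue plasminogen activator, fell by 0.92 at D0. At D3, 4 regulators were over-expressed and 1 under-expressed, and none was called from D28 on. Among 7 other elastin-degrading proteases Ctsk (cathepsin K) rose by 0.92 ± 0.17 at D0, and none was called later.

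Of 17 substrates, Vcan rose by 0.70 at D0, and from D3 on Eln, which encodes elastin, was the only substrate called in an exposure comparison. Eln rose by 0.92 ± 0.20 at D3 and fell by 0.88 at D28, 1.19 at D90 and 0.78 at D180 (limma adjusted p = 0.00106, 0.00538, 0.000245 and 0.0414). In control lungs 7 of the 17 substrates, Eln among them (2.58 ± 0.20), were called higher at D28 than at D0. In exposed lungs 6 of the 17 were called higher over the same interval. The median log2 change of the 17 was 0.46 in controls and 0.52 in exposed lungs, against -0.012 and -0.006 over all genes. A link to the rise of Mmp12 and Mmp14 in controls was not tested. Of 13 subunits of AP-1 and NF-kB and early response genes, Fosl1 was called at D3, and it was well above background on 9 of 50 arrays.

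Some markers of other cells were called in the exposure comparisons, and most were not. Of 11 neutrophil markers, 3 were over-expressed at D0, namely Cd177 (2.43), S100a9 (1.69) and S100a8 (1.37), 3 at D3 and 2 at D28, and Cd177 alone at D90 (0.66) and D180 (0.64). The medians of the 11 log2 changes at the 5 days were 0.24, 0.25, -0.06, 0.01 and 0.13. Of all genes, 4.28%, 3.48%, 1.33%, 0.381% and 0.325% were called at these days. The mean log2 level of the 11 ran from 8.91 to 9.23 in controls and from 9.42 to 9.83 in exposed lungs at D0. At D90 it ran from 9.03 to 9.2 in controls and from 8.96 to 9.36 in exposed lungs, with overlap. Ltf was well above background on no array and Mpo on 10 of 50. Of 11 macrophage markers, Cd14 (0.92) and Itgam (0.81) were over-expressed at D0, 3 markers at D3, 1 at D28 and none later. Their median log2 changes at the 5 days were 0.29, 0.19, 0.17, 0.13 and 0. The mean level of the 11 ran from 10.60 to 10.70 in controls and from 10.71 to 11.25 in exposed lungs at D0, and Marco was well above background on 5 arrays. The part of these cells in the Mmp7, Mmp12 and Mmp14 results was not tested.

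None of 8 fibroblast and none of 10 lung epithelial markers was called in an exposure comparison, and all 10 epithelial markers were well above background on every array. The mean fibroblast level in controls ran from 11.40 to 11.71 at D0 and from 12.03 to 12.36 at D28, beside the rise of Mmp12 and Mmp14. In exposed lungs, where neither Mmp12 nor Mmp14 was called, it ran from 11.22 to 11.47 at D0 and from 11.65 to 12.30 at D28. Between these days 2 of the 8 markers rose in controls and 3 in exposed lungs. The part of fibroblasts in the changes of Mmp12 and Mmp14 between these days was not tested. Of 9 markers of heart muscle, mesothelium, thymus and red blood cells, 1 was called in an exposure comparison, Upk3b at D3 (-0.60). In controls Alas2, an enzyme of heme synthesis in red blood cells, fell by 0.70 from D0 to D3 and rose by 0.62 from D3 to D28. From D0 to D180 the heart muscle genes Myh6 (0.73) and Tnnt2 (0.62) rose in controls, and the median of the 9 was 0.46 against -0.016 over all genes. The part of these tissues in the changes of Mmp8, Mmp14 and Timp3 over the same interval was not tested.

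Genes of the circadian clock moved with both the exposure and the day. Of 11 clock genes, 1 was over-expressed and 6 were under-expressed at D0, and at D28 6 were over-expressed and 4 under-expressed. Dbp changed by -1.95 at D0 and by 3.27 at D28, and in control lungs by -4.51 between D0 and D28. The mean level of the 11 in controls ran from 9.59 to 9.80 at D0 and from 8.67 to 8.85 at D28, and in exposed lungs from 8.73 to 9.17 and from 9.18 to 9.47. Of 11 genes known to respond to glucocorticoids, 3 were over-expressed and 1 was under-expressed at D0, and none was called at D90 or D180. The mean clock level also differed between exposed and control lungs at D3 (8.97 against 9.59), D90 (9.47 against 8.88) and D180 (9.48 against 8.88). The part of clock or glucocorticoid genes in the exposure changes of Mmp7, Mmp12, Mmp14 and Timp3 was not tested. Nor was their part tested in the changes of Mmp8, Mmp12, Mmp14 and Timp3 between days.

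The genes whose levels followed a responding member most closely over the 50 arrays were found among 15430 genes with a symbol. They were Spp1 (Pearson r = 0.956), Tac4 (0.915) and Retnla (0.912) for Mmp7, and Itih1 (0.897), Cotl1 (0.895) and Nipsnap3b (0.892) for Mmp12. For Mmp14 they were Enpp3 (0.921), Apobr (0.912) and Fgg (0.891), and for Timp3 Steap2 (0.796), Deptor (0.796) and Lrch1 (0.782). The arrays share groups and slides, and these values are a description.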

How the data were processed

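RNA of the accessory lung lobe of 50 rats, 1 array each and 5 per group, was measured on single-colour Agilent arrays. The deposited scanner files hold the fluorescence intensity of each spot, which the authors extracted with Agilent Feature Extraction, version 11.0.1.1 per the file headers, including its background subtraction and spot flags. Probe positions in them refer to build rn4. Groups were taken from the sample labels.

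Here gene spots (58717) entered after control spots and the 324 to 872 outlier spots per array were left out. Processed signals were log2 transformed, averaged per probe and quantile normalised. Probes above the 95th percentile of 308 negative control spots (2.74 to 40.6) on at least 5 arrays were kept, which left 29549 probes. The probe with the highest mean stood for each of the 3843 genes with more than 1 probe, giving 25208 genes. Spots well above background made up 68.7% to 84.5% of an array and the median signal was 198.0 to 473.5. Precision is limited by 5 arrays a group.

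All 50 arrays were fitted with limma 3.58.1 (R 4.3.3) with a mean per group, and p-values were adjusted by the Benjamini-Hochberg method over all genes within each comparison. A call needed an adjusted p under 0.05 and at least 1.5-fold. Intervals are 95% intervals of the fit. A self-test of the fit used simulated normal values, drawn independently for each array, with changes set in exposed lungs of D0 only. It held no slide effect and no difference between days, so it cannot speak for these. Members and gene lists were chosen with earlier results of these data known. Up to 4 genes of a list were named, those with the largest changes among the ones called at D0, and for other comparisons those called where they were 4 or fewer. Comparisons of D28 with D0 in control and exposed lungs, and of D3 with D0 in exposed lungs, were chosen after values were seen. The genes most like a member were the 3 with the highest Pearson correlation.

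Alternatives were 75th percentile scaling, normexp background correction with an offset of 50, the series matrix values the authors deposited (an intensity that ranked as the median signal did, log2 transformed here), other filters on dim probes, the mean of all probes, slide or replicate number as a block, a fit to the compared groups alone, no fold limit, and each array left out in turn.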

Additional observations from a re-analysis of the deposited data

Results flagged for a closer look

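Of 100 combinations of a member and a group of 5 arrays, 6 held a single array set far from the other 4, where chance alone flags about 1 in 20 groups. The gap to the nearest array is given as a share of the range of the group. Mmp7 in control replicate 3 at D90 was the highest (7.26 against 6.62, a share of 0.74), and Mmp7 in control replicate 1 at D180 was the lowest (5.44 against 6.43, 0.783). The same control array of D180 was the lowest for Mmp12 (8.97 against 9.57, 0.756). Timp1 was lowest in exposed replicate 1 at D28 (12.9 against 13.09, 0.831) and in control replicate 1 at D90 (12.8 against 12.94, 0.733). Mmp3, not well above background on nearly all arrays, was highest in control replicate 3 at D90 (4.59 against 3.06, 0.921).

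The effect of exposure on Mmp12 differed between D0 and later days in the interaction test, with differences of -1.04 for D28, -1.37 for D90 and -1.24 for D180. The effect on Mmp14 differed likewise, by -0.66, -0.86 and -0.75 for these 3 days.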

How the results depend on the processing

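Over 65 results for single members, 551 of 580 values under other settings and 674 of 710 with 1 array left out kept their direction and their side of the threshold. Counts that moved by over 1.5 times follow. With only the arrays of the groups compared, the members called went from 1 to 0 at D90 (Mmp7), from 2 to 0 for D3 against D0 in controls and in exposed lungs, from 2 to 1 for D28 against D0 in controls, and from 2 to 1 for the exposure effect at D28 against D0 (Mmp12 -1.04, adjusted p = 0.102), and Mmp8 in controls at D180 against D0 had an adjusted p of 0.0536. This setting has fewer arrays. With normexp, D3 against D0 in controls gave 1 (Mmp8 -0.58, under the fold limit). With no fold limit, D28 against D3 in controls gave 2 in place of 0, and D28 against D0 in exposed lungs 1 in place of 0 (Mmp2). With slide as a block, D180 against D0 in controls gave 1 in place of 3, through the 1 array that links the slide sets, D28 against D0 gave 4 in place of 2 in controls (Timp3 and Mmp2 added) and 2 in place of 0 in exposed lungs (Timp3 -0.72, Mmp8 -0.65). The cause was not tested.

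With 1 array left out, the members called by exposure numbered 3 to 4 at D0, 4 to 4 at D3, 1 to 2 at D28, 1 to 1 at D90 and 1 to 1 at D180. In controls they numbered 1 to 2 for D3 against D0, 3 to 4 for D180 against D0 (Mmp12 added at 0.67 without control replicate 5 at D0 and at 0.62 without control replicate 1 at D180), 2 to 3 for D28 against D0 and 0 to 0 for neighbouring later days. In exposed lungs they numbered 0 to 0 for D28 and 1 to 2 for D3, both against D0. For the exposure effect against D0 they numbered 0 to 0 at D3 and 2 to 2 at D28, D90 and D180.

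The values that changed sign were all close to 0 and not called. They were Mmp9 at D0 (0.02 with 75th percentile scaling), Mmp2 at D0 (-0.02 with normexp, -0.01 with the series matrix and with the slide block, -0.05 with the mean of all probes), Mmp2 at D3 (-0.02 with the slide block) and Mmp2 at D28 (0.02 with normexp, 0.01 with the series matrix). The others were Timp2 at D28 (0.03 with the series matrix), Timp2 at D90 (0.05 with either), Timp3 at D90 (0.01 with normexp) and Mmp14 at D90 (0.00 with the series matrix). With 1 array left out, signs changed for Mmp9 at D0 (-0.17 to 0.04), for Mmp2 at D0 (-0.07 to 0.07), D28 (-0.16 to 0.07) and D180 (-0.09 to 0.01), and for Timp2 at D28 (-0.04 to 0.01). They also changed at D90 for Mmp14 (-0.04 to 0.02), Timp3 (-0.15 to 0.09), Timp2 (-0.06 to 0.03) and Timp1 (-0.05 to 0.02).

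Among all genes, normexp called 582 in place of 1079 at D0, 478 in place of 878 at D3 and 140 in place of 335 at D28, and the slide block called 426 in place of 1388 for D180 against D0 in controls. Replicate numbers did not pair the arrays, with 8 of 25 same-numbered pairs correlated over 0.1. The 7 pairs that lay on 1 slide had r of 0.039 to 0.449, and the other pairs -0.339 to 0.277. With the replicate block, the members called by exposure were 3 at D0, 4 at D3 and 1 at each later day, and no other count of members changed. The stricter filter left out the dim probes of Mmp3 and Mmp9, for which signal over background limits the precision.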
